A study of Mus musculus with 4 samples.

Results

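The complement system of mouse liver is described here through the transcripts of its components, regulators and receptors. Members were 36 gene symbols chosen by function, with earlier results of these data known. A gene was measured where a row of the array table is annotated with that symbol alone. Of the 36, 32 were measured among 22180 genes in all, each of the 32 by 1 row of the table. C1s, Masp2, C3 and Cfd were not analysed here. In mice the C1s protease is encoded by C1s1 and C1s2, which are given with the other complement genes below.

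Liver RNA came from male wild-type C57BL/6J mice that were put at 6 weeks of age on a diet without methionine and choline (MCD diet, 2 samples) or a normal diet (2 samples) for 20 weeks. The MCD diet is a widely used mouse model of fatty liver with inflammation. Each sample was hybridised to its own gene-level array, 4 arrays in all, and the labels do not say whether a sample is 1 mouse or several, so the p-values reflect no more than how these samples vary. Array medians of the deposited log2 signals were 2.57 to 2.65. Detection values were not used, so the size of any difference that involves signals near or below these medians is uncertain. As a check of the tissue, Alb, the albumin gene of hepatocytes, had log2 signals of 11.99 and 11.93 in MCD diet livers and 12.04 and 11.96 in normal diet livers, near the top of the scale. In RNA from whole liver, fewer cells of a type and less RNA per cell cannot be told apart.

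Complement is a cascade of plasma proteins that marks particles for uptake, releases inflammatory fragments and can perforate membranes. The classical pathway starts with C1q, the lectin pathway with sugar-binding proteins such as mannose-binding lectins, and the alternative pathway amplifies what has been deposited. All of them lead to the cleavage of C5, after which C5b, C6, C7, C8 and C9 assemble into the membrane attack complex. Hepatocytes secrete most of the soluble components, whereas C1q, properdin and ficolin A are made mainly by macrophages, and collectins of the liver also come from stellate cells.

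In MCD diet livers C6, C9 and the C8 chains of the terminal pathway and several initiators of the lectin pathway were lower, while C1q, C7 and the anaphylatoxin receptors were higher. Of the 32 measured members 11 fell and 7 rose at an adjusted p under 0.05 (limma, Benjamini-Hochberg adjustment over all genes), and 14 did not pass. Of all genes tested 9.98% passed, against 56.2% of the members. Among all genes, 3.62% fell and 6.37% rose, against 34.4% and 21.9% of the members. Since the members were chosen with earlier results of these data known, these shares describe the list and do not test it. Most members have strong signals, 26 of the 32 being among the 25% of genes with the highest normal diet signal. Of all genes in that top 25%, 10.9% fell and 5.92% rose. The median log2 difference of the members was -0.34, against -0.03 over all genes.

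**Figure D1:**
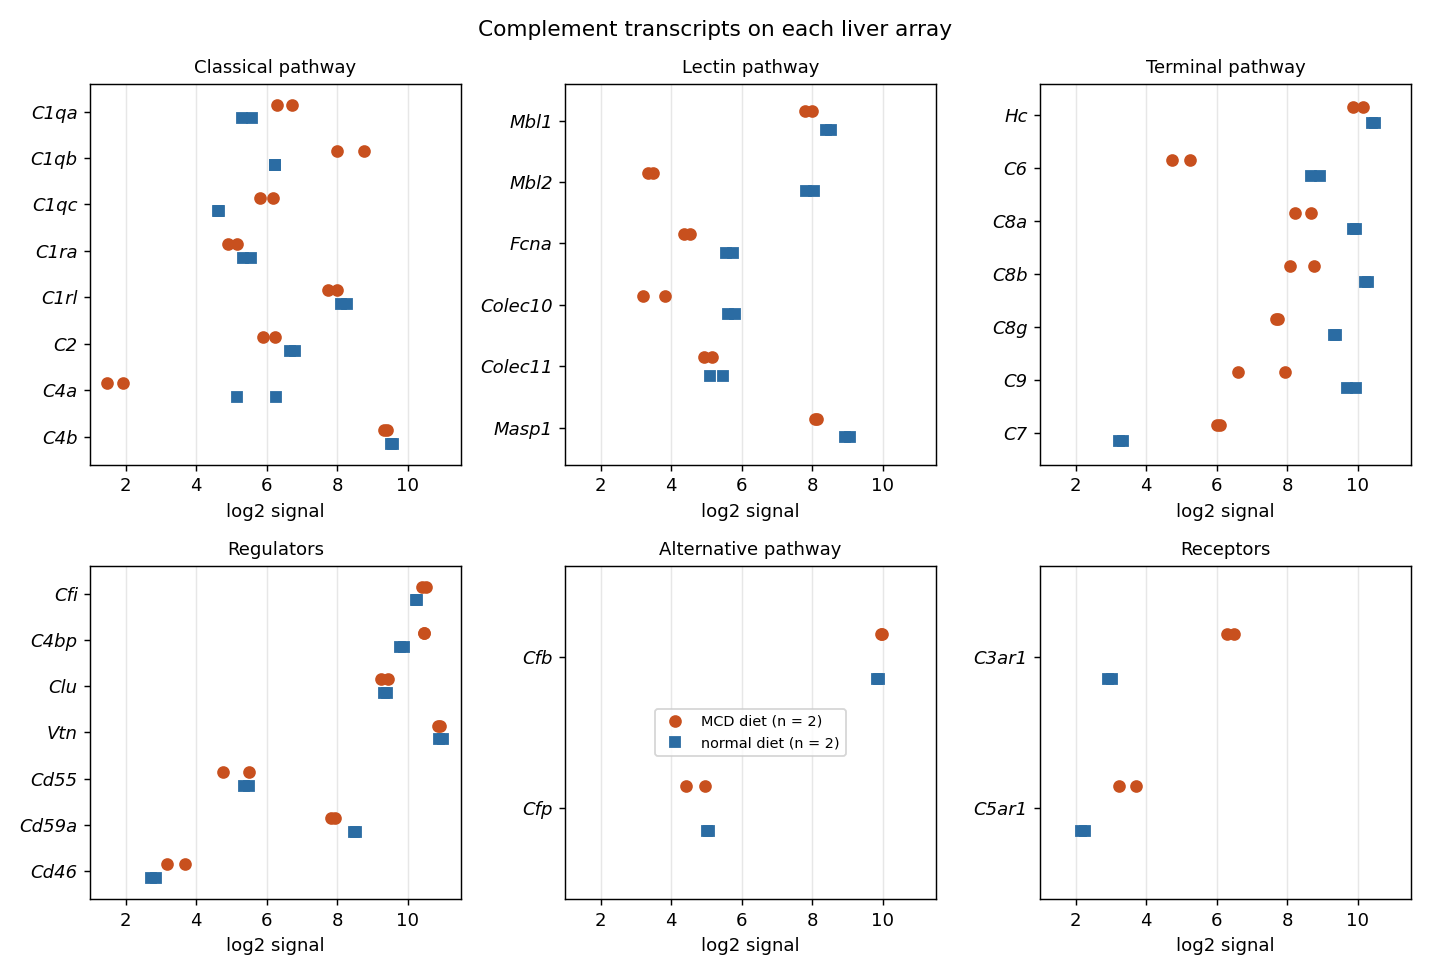
Log2 signal (horizontal axis) of each of the 32 measured complement genes on every array, by pathway; circles are the 2 MCD diet arrays and squares the 2 normal diet arrays. Signals of Mbl2, C6 and C4a lie far lower on the MCD diet arrays, and those of C7 and C3ar1 far higher.

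The mannose-binding lectin genes are shown first by sequence, because they encode related proteins and Mbl2 fell while Mbl1 did not pass. Sequences are from RefSeq (build GRCm38.p6) and cover the 250 bases before the annotated start, 5′ to 3′ on the gene's own strand. Mbl1 is at chr14:41151206-41151455 (+ strand) and Mbl2 at chr19:30232678-30232927 (+ strand). Capitals mark the 30-base stretch with most identical bases between the pair, 27 of 30, found at positions -36 to -7 in Mbl1 and -70 to -41 in Mbl2, counted back from the start.
Mbl1: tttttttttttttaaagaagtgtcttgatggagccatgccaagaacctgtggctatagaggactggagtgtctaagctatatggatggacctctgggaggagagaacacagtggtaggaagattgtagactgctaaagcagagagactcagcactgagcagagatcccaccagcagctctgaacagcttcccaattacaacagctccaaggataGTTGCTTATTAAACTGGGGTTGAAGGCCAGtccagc
Mbl2: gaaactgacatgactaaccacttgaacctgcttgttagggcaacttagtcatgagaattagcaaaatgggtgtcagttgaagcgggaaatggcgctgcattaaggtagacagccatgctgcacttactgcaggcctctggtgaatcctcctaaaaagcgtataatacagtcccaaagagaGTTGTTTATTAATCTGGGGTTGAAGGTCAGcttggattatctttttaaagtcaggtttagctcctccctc
The longest run identical in both, CTGGGGTTGAAGG (13 bases, either strand), is in 3 of 32851 RefSeq windows of the same length. Those of Mbl1 and Mbl2, from which the run was taken, are among the 3.

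Among the lectin pathway genes, 4 of the 6 measured fell and 0 rose. Mbl2, which encodes mannose-binding lectin C, had log2 signals of 3.33 and 3.47 in MCD diet livers, against 7.83 and 8.04 in normal diet livers. Its MCD diet signals were dim, so the size of its fall is uncertain. The diets lay far apart, with a difference of -4.53 ± 0.14 on the log2 scale (23.1-fold lower, limma adjusted p = 0.000165). Here and below ± gives the moderated standard error of such a difference from limma, with n = 2 arrays per diet. That error also draws on the spread of all other genes, so it is not the spread of the gene's own arrays. Mbl1, the gene of mannose-binding lectin A, had 7.79 and 7.99 in MCD diet livers and 8.39 and 8.54 in normal diet livers. Its arrays did not overlap either, as for 54.2% of all genes, but the difference of -0.58 ± 0.14 did not pass (limma adjusted p = 0.0527). The difference of Mbl2 exceeded that of Mbl1 by 3.95, with the log2 ratio of Mbl2 to Mbl1 at -4.45 and -4.51 on the MCD diet arrays, against -0.56 and -0.50 on the normal diet arrays. An exact permutation test of this ratio cannot go below p = 0.333 with 2 arrays per diet, and gave that value (two-sided; adjusted p = 0.37 over the 10 pairs of members compared, which were chosen after their values were seen).

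Other recognition proteins of this pathway bind sugars through a collagen-tailed lectin or ficolin fold. Colec10, the liver collectin CL-L1, had log2 signals of 3.82 and 3.19 in MCD diet livers, against 5.80 and 5.62 in normal diet livers. It fell by 2.21 ± 0.22 (4.62-fold lower, limma adjusted p = 0.00337). MCD diet signals of Colec10 were dim, so the size of this fall is uncertain. Its partner Colec11, collectin CL-K1, had 4.93 and 5.15 in MCD diet livers and 5.47 and 5.11 in normal diet livers. The diets overlapped for Colec11, whose difference was -0.25 ± 0.17 (limma adjusted p = 0.438). Fcna, which encodes the macrophage-made ficolin A, had 4.37 and 4.54 in MCD diet livers and 5.75 and 5.57 in normal diet livers, and fell by 1.20 ± 0.14 (limma adjusted p = 0.00492). Masp1, the gene of a protease that circulates bound to these lectins, had 8.14 and 8.08 in MCD diet livers, against 8.92 and 9.08 in normal diet livers. It fell by 0.89 ± 0.12 (limma adjusted p = 0.0102), but not past the threshold when normal diet replicate 2 was left out (adjusted p = 0.0576).

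The terminal pathway held more changed members than any other group, with 5 of 7 lower and 1 higher. C6, which binds C5b as the first step of pore assembly, had log2 signals of 4.74 and 5.23 in MCD diet livers, against 8.67 and 8.94 in normal diet livers. It fell by 3.81 ± 0.20 (14.1-fold lower; limma adjusted p = 0.000482). C9, the subunit that polymerises into the pore wall, had 6.61 and 7.95 in MCD diet livers and 9.71 and 9.96 in normal diet livers. The MCD diet samples were uneven for C9 yet both lay below the normal diet samples, and the gene fell by 2.55 ± 0.41 (5.87-fold lower; limma adjusted p = 0.0157). With normal diet replicate 2 left out, C9 did not pass (adjusted p = 0.07).

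C8 consists of an alpha, a beta and a gamma chain, and all 3 chain genes fell. C8a had log2 signals of 8.22 and 8.68 in MCD diet livers and 9.87 and 9.95 in normal diet livers (fell by 1.46 ± 0.18, limma adjusted p = 0.00615). C8b had 8.08 and 8.76 in MCD diet livers and 10.31 and 10.20 in normal diet livers (fell by 1.83 ± 0.23, limma adjusted p = 0.00701). For C8g, whose product is a lipocalin rather than a pore-forming protein, the signals were 7.75 and 7.68 in MCD diet livers and 9.34 and 9.40 in normal diet livers (fell by 1.65 ± 0.12, limma adjusted p = 0.0013). None of the chains overlapped between diets, which holds for 54.2% of all genes. On the log2 scale the difference of C8b was 0.37 below that of C8a and that of C8g 0.19 below it, and the ratio of C8g to C8a overlapped between the diets. Hc, the gene of C5, had 9.88 and 10.16 in MCD diet livers and 10.40 and 10.49 in normal diet livers, and its difference of -0.42 ± 0.14 did not pass (limma adjusted p = 0.14).

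C7, which anchors the nascent complex in the membrane, went the other way. Its log2 signals were 6.02 and 6.09 in MCD diet livers, against 3.33 and 3.23 in normal diet livers, a rise of 2.77 ± 0.12 (6.84-fold; limma adjusted p = 0.000349). The log2 ratio of C7 to C6 was thus 1.28 and 0.86 on the MCD diet arrays, against -5.34 and -5.70 on the normal diet arrays (exact permutation p = 0.333, the smallest possible; adjusted p = 0.37). Signals of different genes need not share a common scale, so this and the other ratios are read only for their change between diets. For C7 against C6 that change was 6.59. Normal diet signals of C7 were dim, so the sizes of its rise and of this change are uncertain. C6 and C7 lie on chromosome 15 in the RefSeq annotation, with 1 protein-coding gene, Mroh2b, between them. C7 is made by mesenchymal cells as well as other cells. Markers of stellate cells had mean log2 signals of 5.83 and 5.88 in MCD diet livers and 5.57 and 5.25 in normal diet livers, and 3 of 11 rose and 2 fell. Markers of portal fibroblasts and mesothelium had 3.60 and 3.81 in MCD diet livers and 3.04 and 2.95 in normal diet livers, and 2 of 9 rose. Among all genes, 6.37% rose and 3.62% fell. The part of stellate cells, portal fibroblasts and mesothelium in the result for C7 was not tested.

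Promoter sequences of 4 terminal genes are shown because C8a and C8b, neighbours on chromosome 4 with 0 protein-coding genes between them, fell together while C6 and C7 moved apart. Capitals mark GTTAAT or its reverse complement, the core letters of the site of the hepatocyte factor HNF1, which had the largest share in member windows relative to all windows among the motifs found in them. The windows are chr4:104876399-104876648 (- strand) for C8a, chr4:104766067-104766316 (+ strand) for C8b, chr15:4726960-4727209 (+ strand) for C6 and chr15:5063774-5064023 (- strand) for C7.
C8a: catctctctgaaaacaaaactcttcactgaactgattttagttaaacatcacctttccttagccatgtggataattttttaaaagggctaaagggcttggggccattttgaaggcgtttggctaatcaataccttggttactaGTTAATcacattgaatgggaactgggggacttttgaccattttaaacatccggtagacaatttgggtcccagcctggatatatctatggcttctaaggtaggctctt
C8b: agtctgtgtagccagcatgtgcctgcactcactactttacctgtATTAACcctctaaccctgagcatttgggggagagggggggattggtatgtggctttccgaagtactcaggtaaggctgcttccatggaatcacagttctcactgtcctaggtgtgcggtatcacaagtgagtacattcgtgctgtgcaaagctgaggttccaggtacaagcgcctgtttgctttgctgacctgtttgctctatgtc
C6: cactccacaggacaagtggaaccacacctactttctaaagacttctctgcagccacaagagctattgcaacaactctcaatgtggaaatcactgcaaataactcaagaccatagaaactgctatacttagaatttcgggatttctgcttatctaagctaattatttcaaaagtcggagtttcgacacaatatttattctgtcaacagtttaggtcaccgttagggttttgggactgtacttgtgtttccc
C7: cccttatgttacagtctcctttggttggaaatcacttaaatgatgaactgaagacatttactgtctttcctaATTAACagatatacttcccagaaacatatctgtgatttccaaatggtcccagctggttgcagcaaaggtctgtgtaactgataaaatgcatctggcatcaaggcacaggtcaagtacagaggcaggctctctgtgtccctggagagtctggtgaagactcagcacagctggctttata
Windows were matched for 23 of the 32 measured members (24 windows, since C8g has 2). GTTAAT was found in 8 of the 24 (33.3%), against 6.43% of all 32851 windows. The 8 genes were C4bp, Hc, C8b, C8a, C1ra, Vtn, C7 and Cfp, of which 2 fell, 2 rose and 4 did not pass. Of the other motifs searched on either strand, the TATA box TATAAA was in 4 windows (16.7%, against 12.4% of all), the STAT site TTCNNNGAA in 3 (12.5%, against 7.02%) and a relaxed NF-kappaB site in 3 (12.5%, against 17.6%). CAAAG, which is part of the HNF4 site, was in 13 (54.2%, against 48.6%). The relaxed C/EBP site TTGCNNAA (9.56% of all windows), the Ets core AGAGGAA (8.55%) and the AP-1 site TGANTCA (6.75%) were in 2 each, and the PU.1 site GAGGAAGT (2.44%) in 1, that of C1qc. No member window held the HNF4 site CAAAGTCCA (0.384% of all windows), the C/EBP site TTGCGCAA (0.164%) or the FOXA site TGTTTAC (3.17%). The ONECUT site ATCGAT (0.728% of all windows), a full HNF1 site (0.00913%), which contains the core letters, and a strict NF-kappaB site (0.14%) were in 0 member windows too. A match describes letters and is not a binding site.

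In the classical pathway 3 of 8 measured genes rose, namely the subunits of C1q, and 1 fell. C1q is the hexameric pattern receptor whose A, B and C chains are made by macrophages. C1qb had log2 signals of 8.76 and 8.005 in MCD diet livers, against 6.25 and 6.22 in normal diet livers, and rose by 2.15 ± 0.25 (4.44-fold; limma adjusted p = 0.00525). C1qc had 6.18 and 5.82 in MCD diet livers and 4.63 and 4.65 in normal diet livers (1.36 ± 0.16, limma adjusted p = 0.00526). For C1qa the values were 6.72 and 6.29 in MCD diet livers and 5.59 and 5.31 in normal diet livers (1.05 ± 0.19, limma adjusted p = 0.0225). All chains were higher on MCD diet replicate 1 than on replicate 2, and the diets did not overlap, as for 54.2% of all genes. C1qa did not pass when normal diet replicate 2 (adjusted p = 0.102) or MCD diet replicate 1 (adjusted p = 0.0865) was left out. The rise of C1qb exceeded that of C1qa by 1.10 and that of C1qc by 0.79 on the log2 scale (exact permutation p = 0.333 for each, the smallest possible; adjusted p = 0.37).

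None of the measured proteases and substrates that act after C1q passed the test for a rise. C1ra, the gene of the C1r protease, differed by -0.40 ± 0.15 (limma adjusted p = 0.177), and C1rl, a C1r-like protease gene, by -0.33 ± 0.15 (limma adjusted p = 0.256). C2, which supplies the protease of the classical convertase, had log2 signals of 5.90 and 6.23 in MCD diet livers and 6.79 and 6.65 in normal diet livers. Its difference of -0.66 ± 0.15 lay at the threshold (limma adjusted p = 0.0503). C4b, the main mouse C4 gene, had 9.32 and 9.42 in MCD diet livers and 9.54 and 9.59 in normal diet livers, a difference of -0.20 ± 0.12 (limma adjusted p = 0.392). C4a, also known as Slp or sex-limited protein, had 1.93 and 1.45 in MCD diet livers, against 5.16 and 6.27 in normal diet livers. C4a fell by 4.02 ± 0.36 (16.3-fold lower; limma adjusted p = 0.00261), with the normal diet samples unlike each other but both well above the MCD diet samples. C4a and C4b are near-identical copies, so their probes may share signal, and the MCD diet signals of C4a lay below the array medians, which leaves the size of this fall uncertain.

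Of the alternative pathway 2 members were measured, and neither passed. Cfb, factor B, the protease part of the alternative convertase, had log2 signals of 9.96 and 9.99 in MCD diet livers and 9.85 and 9.90 in normal diet livers (0.10 ± 0.12, limma adjusted p = 0.684). Cfp, properdin, the macrophage- and neutrophil-made stabiliser of that convertase, had 4.97 and 4.43 in MCD diet livers and 5.01 and 5.08 in normal diet livers (-0.35 ± 0.19, limma adjusted p = 0.348).

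**Figure D2:**
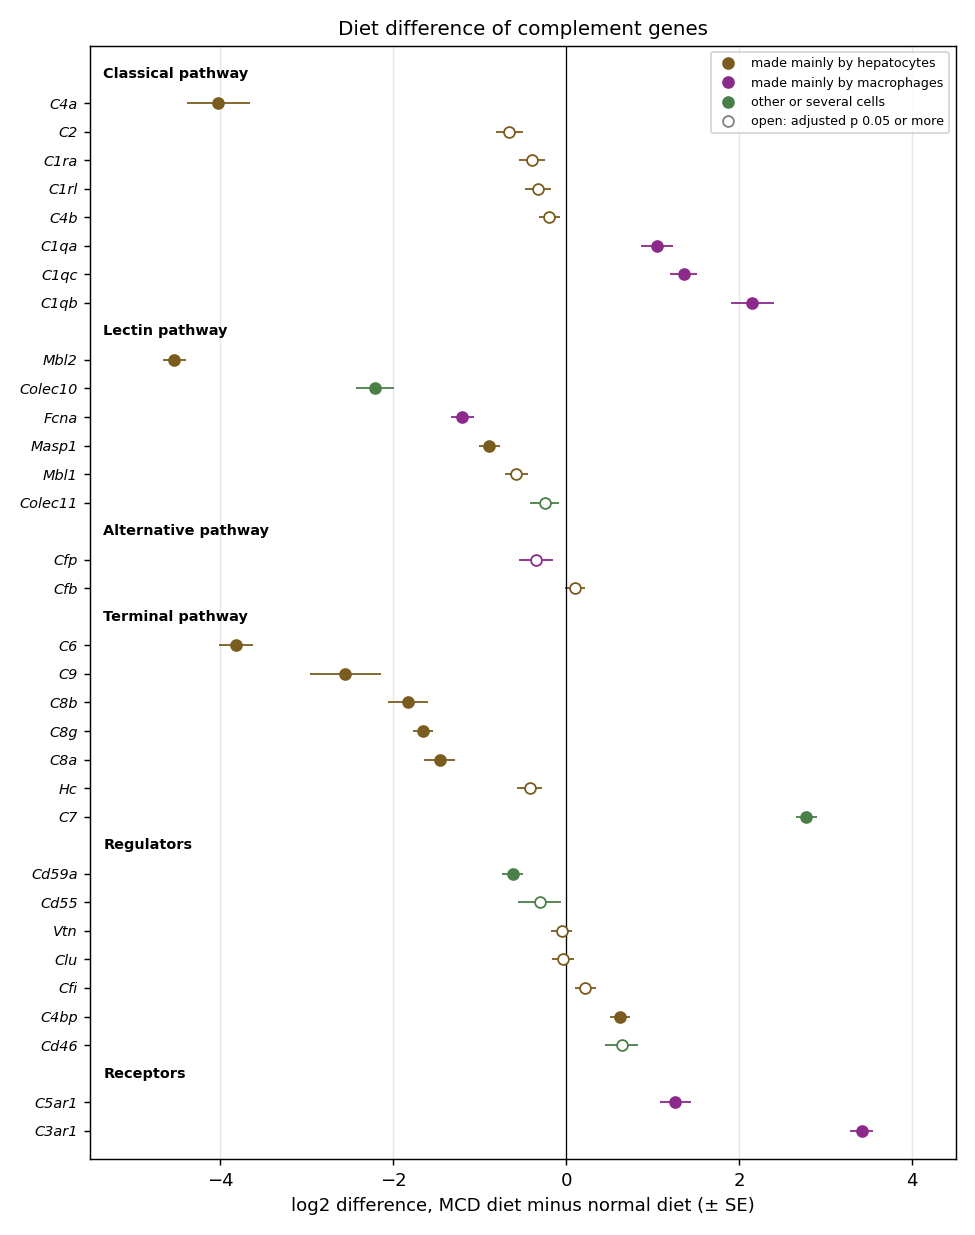
Log2 difference, MCD diet minus normal diet, with its moderated standard error (n = 2 arrays per diet) for each complement gene by pathway. Colour gives the main source cell from general knowledge, and filled points passed an adjusted p of 0.05 in limma. C1q subunits and receptors lie right of 0, and terminal components other than C7 lie left of 0.

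Regulators moved little. Of 7 measured, 1 rose, 1 fell and 5 did not pass. C4bp, the soluble inhibitor that binds C4b, had log2 signals of 10.47 and 10.45 in MCD diet livers and 9.80 and 9.88 in normal diet livers, a rise of 0.62 ± 0.12 (1.54-fold; limma adjusted p = 0.0274). Cd59a, the membrane protein that blocks C9 polymerisation, had 7.95 and 7.82 in MCD diet livers and 8.53 and 8.47 in normal diet livers, and fell by 0.62 ± 0.12 (1.54-fold lower; limma adjusted p = 0.0312). These were the least certain calls: each was lost without any 1 of the 4 arrays (adjusted p = 0.0891 to 0.117 for C4bp and 0.0872 to 0.123 for Cd59a), and that of C4bp also with a replicate block (adjusted p = 0.0502).

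The other soluble regulators measured did not pass. Cfi, factor I, which cleaves C3b and C4b, differed by 0.22 ± 0.12 (limma adjusted p = 0.347). Clusterin (Clu) and vitronectin (Vtn), which keep the terminal complex from inserting into membranes, differed by -0.03 ± 0.13 and -0.05 ± 0.12, values whose sign turns under quantile normalization (0.12 and 0.15). Cd55, the decay-accelerating factor, had 5.49 and 4.76 in MCD diet livers and 5.51 and 5.36 in normal diet livers, and the diets overlapped (-0.31 ± 0.24, limma adjusted p = 0.515). Cd46, which in mice is known mainly from the testis, was dim, with 3.69 and 3.16 in MCD diet livers and 2.72 and 2.86 in normal diet livers (0.64 ± 0.20, limma adjusted p = 0.105). It passed without MCD diet replicate 2 (adjusted p = 0.0398).

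Both receptors for the anaphylatoxins, the small fragments released from C3 and C5, rose. C3ar1, the C3a receptor of myeloid cells, had log2 signals of 6.48 and 6.28 in MCD diet livers, against 3.03 and 2.91 in normal diet livers. It rose by 3.41 ± 0.13 (10.7-fold; limma adjusted p = 0.000283), the largest rise among the members. C5ar1, the C5a receptor of myeloid cells, had 3.70 and 3.24 in MCD diet livers and 2.16 and 2.26 in normal diet livers, a rise of 1.26 ± 0.18 (2.40-fold; limma adjusted p = 0.0103). Normal diet signals of both were dim, so the sizes of these rises are uncertain. The rise of C3ar1 exceeded that of C5ar1 by 2.15 (exact permutation p = 0.333, the smallest possible; adjusted p = 0.37).

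Sorted by main source cell, 5 of the 7 genes of macrophages rose and 1 fell, with a median difference of 1.26, and of the 19 genes made mainly by hepatocytes 1 rose and 8 fell, with a median of -0.58. Among the 6 genes of other or several cells 1 rose and 2 fell. Of all genes, 6.37% rose and 3.62% fell. The macrophage genes that rose were the 3 C1q subunits and the 2 anaphylatoxin receptors, while Fcna fell and Cfp did not pass. Their median of 1.26 is the value of C5ar1, whose rise is uncertain in size. The macrophage genes did not move as one: the log2 ratio of C1qb to Fcna was 4.39 and 3.47 on the MCD diet arrays, against 0.50 and 0.66 on the normal diet arrays (exact permutation p = 0.333, the smallest possible; adjusted p = 0.37). Markers of recruited and lipid-associated macrophages moved with C1q and the receptors, 12 of 12 rising, with mean log2 signals of 6.59 and 6.34 in MCD diet livers and 3.40 and 3.48 in normal diet livers. Among them were Cd68, a lysosomal macrophage protein gene (3.43 ± 0.24, limma adjusted p = 0.00129), and the lipid receptor gene Trem2 (3.47 ± 0.22, limma adjusted p = 0.000905). Of 11 Kupffer cell markers 1 rose and 3 fell, with mean signals of 4.88 and 4.62 in MCD diet livers and 4.99 and 4.98 in normal diet livers. Their differences were above 0 for 6 and below 0 for 5, with a median of 0.09. Clec4f, a lectin gene of resident Kupffer cells, fell by 1.66 ± 0.19 (limma adjusted p = 0.00546). Cd163 fell by 2.06 ± 0.13 (limma adjusted p = 0.001005), whereas Id3 rose by 1.03 ± 0.17 (limma adjusted p = 0.018). The pan-macrophage marker Adgre1 differed by 1.09 ± 0.29 and did not pass (limma adjusted p = 0.0748). The part of macrophage numbers in these results was not tested.

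Hepatocyte genes of other plasma proteins gave a setting for the falls. Of 31 such genes measured, including coagulation factors, apolipoproteins and carriers, 0 rose and 8 fell, with a median of -0.17 and a lowest difference of -1.50, that of the coagulation factor gene F11. The number that fell was 4 or 5 without any 1 array, and 4 rose under quantile normalization and 3 with an intensity trend. F7 fell by 1.30 ± 0.12 (limma adjusted p = 0.00274) and Itih1 by 1.14 ± 0.15 (limma adjusted p = 0.00904). Mbl2, C4a, C6, C9, C8b and C8g each fell further than F11. Of 20 genes on an acute phase list that also holds receptor and signalling genes, 4 rose and 2 fell, with a median of 0.16. Lcn2 rose by 3.91 ± 0.22 (limma adjusted p = 0.00064) and Orm2 by 3.46 ± 0.16 (limma adjusted p = 0.000349). Saa2 fell by 1.86 ± 0.32 (limma adjusted p = 0.0203). Of 12 transcription factors of hepatocytes 0 rose and 5 fell, with a median of -0.51, and without 1 array the number that fell was 1 (normal diet replicate 2), 2 (normal diet replicate 1) or 3 (either MCD diet replicate). Whether these changes have a part in the falls of complement genes was not tested.

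**Figure D3:**
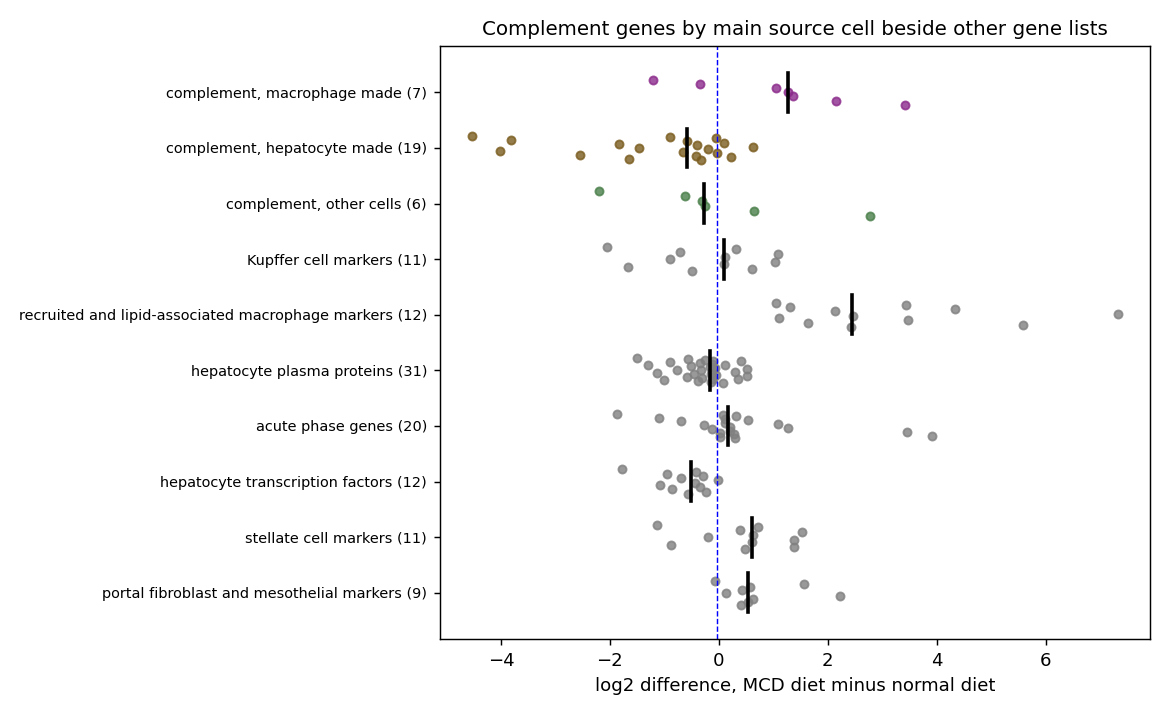
Log2 difference, MCD diet minus normal diet, of complement genes by main source cell and of other gene lists (number measured in brackets); each point is a gene, black bars are medians, and the dashed line is the median of all genes, -0.03. The macrophage members, which include the 2 anaphylatoxin receptors, have a median of 1.26, the value of C5ar1. The hepatocyte-made members have a median of -0.58.

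Other complement genes, a further list of 27 of which 25 were measured, gave 5 higher and 4 lower, with a median of -0.21. The complement receptors 3 and 4 are integrins that bind fragments of C3, and their chain genes rose together: Itgax by 3.03 ± 0.18 (8.17-fold; limma adjusted p = 0.000742), the shared chain Itgb2 by 2.48 ± 0.18 (limma adjusted p = 0.00129) and Itgam by 2.23 ± 0.29 (limma adjusted p = 0.00752). Normal diet signals of Itgax and Itgam lay near or below the array medians, so the sizes of these rises are uncertain. Cd93, once described as a C1q receptor, rose by 1.60 ± 0.15 (limma adjusted p = 0.00307). Vsig4, the C3b receptor of Kupffer cells, had log2 signals of 7.51 and 6.29 in MCD diet livers and 6.33 and 6.19 in normal diet livers. The diets overlapped for Vsig4, whose difference of 0.64 ± 0.37 did not pass (limma adjusted p = 0.372). The receptor genes C5ar2, Cr2 and Cr1l did not pass either, at -0.08, -0.28 and 0.29.

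Pentraxins are plasma proteins that bind C1q and start the classical pathway. Apcs, the gene of serum amyloid P component, an acute phase protein of mice, had log2 signals of 10.14 and 9.82 in MCD diet livers, against 6.41 and 6.25 in normal diet livers. It rose by 3.65 ± 0.15 (12.6-fold; limma adjusted p = 0.000349). Crp and Ptx3 did not pass, at -0.48 ± 0.14 and -0.03 ± 0.12, the sign of Ptx3 turning under quantile normalization (0.043).

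The 4 other complement genes that fell were Susd4, Cfhr2, Serping1 and Cd59b, and without 1 array 1 or 2 of the list fell. Susd4, whose product restrains the classical and alternative convertases, had log2 signals of 2.91 and 2.77 in MCD diet livers, against 6.51 and 5.74 in normal diet livers. It fell by 3.28 ± 0.26 (9.72-fold lower; limma adjusted p = 0.00158), with MCD diet signals near the array medians, so the size of this fall is uncertain. Cfhr2, a factor H-related gene with close copies, fell by 1.02 ± 0.23 (limma adjusted p = 0.0477), but did not pass when normal diet replicate 1, normal diet replicate 2 or MCD diet replicate 2 was left out. Serping1, the C1 inhibitor gene, and Cd59b, a copy of Cd59a, fell by 0.59 ± 0.13 (limma adjusted p = 0.0421) and 0.58 ± 0.12 (limma adjusted p = 0.0317), calls that were each lost without any 1 of the 4 arrays, with a replicate block (adjusted p = 0.056 and 0.0567) and, for Serping1, under quantile normalization (adjusted p = 0.0981) or, for Cd59b, with an intensity trend in the moderation (adjusted p = 0.0559). The carboxypeptidase N genes Cpn1 and Cpn2, whose product inactivates anaphylatoxins, differed by -0.46 and -0.64 and did not pass. The C1s genes C1s1 and C1s2 differed by -0.24 ± 0.22 and 0.06 ± 0.16, the sign of C1s2 turning under median centring (-0.0052). C1rb, Colec12, Fcnb, Cd55b, C1qbp and Csmd1 did not pass, with differences from -0.50 to 0.08.

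**Figure D4:**
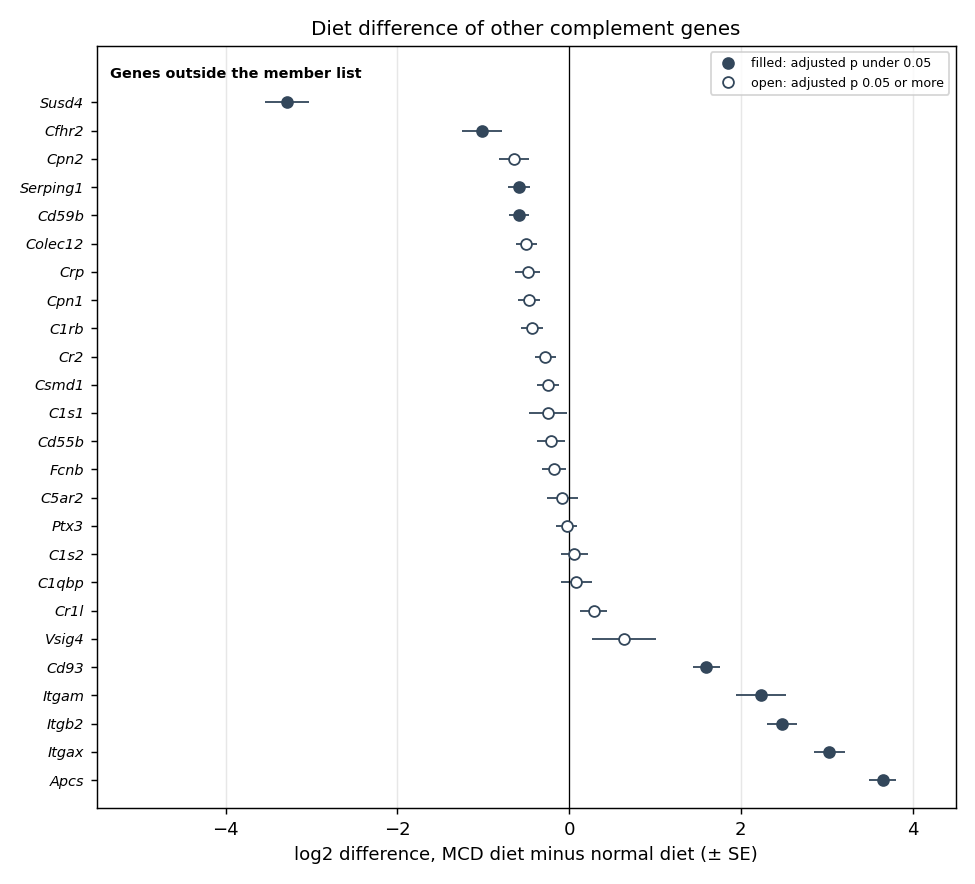
Log2 difference, MCD diet minus normal diet, with its moderated standard error (n = 2 arrays per diet) for 25 complement genes outside the member list. Filled points passed an adjusted p of 0.05 in limma. Apcs and the integrin chains lie at the right end, and Susd4 at the left end with a fall of 3.28.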

How the data were processed

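Liver RNA of mice on the MCD diet or a normal diet was measured on Mouse Gene 2.1 ST arrays. Per the submitters' processing notes, the authors used Transcriptome Analysis Console; its version, background step and normalization method were not given in the sources used here. Values deposited by the authors were read as log2 signals, a base inferred from their range (maximum 12.1), and all fold changes depend on it. The number of unused columns was 0.

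Of 34472 rows, the platform annotation names 1 gene for 23521, several for 1814 and none for 9137. Only rows naming 1 gene were used, with the brightest row (mean over the 4 arrays) for the 1082 genes with several, which left 22180 genes. The row annotated Masp2 together with another gene was therefore not used. Neither detection values nor a filter on dim genes were used.

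MCD diet and normal diet livers were compared with limma 3.58.1 in R 4.3.3 (lmFit and eBayes, two-sided, all 4 arrays, no block, Benjamini-Hochberg adjustment over all genes, threshold 0.05); moderation raised the residual degrees of freedom to 6.06. The test was tested on simulated data. Ratios of 10 pairs of members were compared by exact permutation in SciPy 1.17.1. Promoter windows came from RefSeq (GRCm38.p6) by symbol. The members and lists were chosen with earlier results of these data known. Named were all members and all measured genes of the list of other complement genes. Of hepatocyte plasma proteins, acute phase genes and Kupffer cell markers, the 3 called genes with the largest differences were named. Alb, Adgre1, Cd68, Trem2 and Adipoq were named as well, and called genes of the remaining lists were otherwise not named. Source cells were assigned from general knowledge. Adipocyte, endothelial, cholangiocyte and lymphocyte and neutrophil markers gave 1, 0, 7 and 1 higher and 0, 4, 0 and 0 lower of 6, 10, 7 and 11 measured, and Adipoq differed by -0.34.

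The labels do not say whether a shared replicate number pairs samples. Deviations from the diet means correlated little between samples of the same number (0.05 across genes), which cannot settle this. Alternatives were other normalizations, filters, moderation, row choices, call rules, a replicate block and leaving out each array.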

Additional observations from a re-analysis of the deposited data

How the results depend on the processing

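Of the 18 members called, 13 were called under every alternative that tested them, with C5ar1 left untested without the dimmest 50% of genes; C1qa, Masp1, C9, C4bp and Cd59a lost their call under 1 or more. The count of members lower was 11 and of members higher 7, against 5 to 7 higher and 8 to 10 lower without 1 array, 6 higher and 11 lower with the replicate number as a block, and 6 higher and 9 lower when a call needed a 2-fold change and an unadjusted p under 0.05. C2 and Mbl1 fell past the threshold under median centring (adjusted p = 0.0334 and 0.0339) and without the dimmest 25% or 50% of genes, C2 also when rows of 1 gene were averaged and Mbl1 also with an intensity trend. Over all genes, 1412 rose and 802 fell, against 688 to 1011 and 362 to 482 without 1 array, 1288 and 662 with the block, and 780 and 375 by that 2-fold rule, which is a stricter rule on size. Lower genes made up 36.2% of calls, 44.5% under quantile normalization and 46.0% under median centring. Differences that changed sign, none of them called, were those of Clu (0.116), Vtn (0.151) and Ptx3 (0.043) under quantile normalization and of C1s2 (-0.0052) under median centring. Without 1 array, differences that changed sign ran from -0.128 to 0.0588 for Clu, -0.674 to 0.0566 for Cd55, -0.553 to 0.0645 for C1s1, -0.127 to 0.249 for C1s2, -0.289 to 0.134 for C5ar2, -0.141 to 0.305 for C1qbp and -0.0865 to 0.0308 for Ptx3. The cause was not tested, except that fewer arrays were fitted. With no detection values, the size of differences that involve dim signals, such as those of Mbl2, Colec10, C7, C3ar1, C5ar1, Cd46 and C4a, is uncertain. Without 1 array, markers that rose were 4 or 5 for cholangiocytes (7 with all arrays), 0 to 4 for lymphocytes and neutrophils (1) and 0 or 1 for Kupffer cells (1), and genes that fell were 1 to 3 for endothelium (4), 0 to 2 for stellate cells (2) and 1 to 3 for acute phase genes (2). Hepatocyte transcription factors that fell numbered 3 with the replicate block.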
